A study of Mus musculus with 6 samples.

Results

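The genes described here are Trp53, which encodes the transcription factor p53, and 8 of its established target genes, Mdm2, Ccng1, Bax, Bbc3, Sesn1, Phlda3, Eda2r and Zmat3. They were found by gene symbol among the 48820 Ensembl gene identifiers of the deposited table, and all 9 had a row. RNA-seq was done on spheroids of 4T1, a mouse triple-negative breast cancer line, grown in RPMI with serum. The 3 libraries of the double-knockout (dKO) group came from 4T1 cells labelled as lacking both Hippo kinases, LATS1 and LATS2. The 3 wild-type (WT) libraries came from 4T1 cells without that knockout. The labels number the libraries of a group as biological replicates, without saying if they were separate cultures or if the dKO line is 1 clone. The p-values therefore rest on the variation among these libraries, part or all of which may be technical. Total counts ran from 38194478 to 42486146 in dKO and from 40150225 to 49630116 in WT libraries. On the second principal component of log2 CPM over the 15807 tested genes, WT 2 and dKO 3 stood apart from the other libraries of their group. Results were therefore also computed without them.

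p53 accumulates when DNA is damaged or oncogenes are active, and it then binds DNA as a tetramer and turns on genes of growth arrest, cell death, DNA repair and metabolism. MDM2 is a ubiquitin ligase that marks p53 for degradation, and because Mdm2 is itself a p53 target the pair forms a negative feedback loop. In human cells the Hippo kinase LATS2 has been described to bind MDM2 and restrain it. The 4T1 line has been described as lacking functional p53. Counts per gene cannot show whether the Trp53 mRNA encodes a working protein, and the Trp53 sequence of these cells was not analysed here.

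Among the targets, Phlda3 and Sesn1 fell in the dKO libraries, Bbc3 and Trp53 itself fell by smaller amounts, Bax rose, and Mdm2, Ccng1 and Zmat3 were not called. Eda2r was at or near 0 in every library. Of the 8 genes that could be tested, 1 was called higher and 4 were called lower in dKO (edgeR quasi-likelihood test, Benjamini-Hochberg adjusted p under 0.05 over 15807 tested genes). Over all tested genes, 57.3% were called, 28.6% higher and 28.7% lower, so a call in itself was common in this comparison. Without WT 2 and dKO 3, 3 of the 8 genes were called higher, Ccng1 and Zmat3 with Bax, and 4 were called lower. More genes were called over all in that setting too, 10139 of 16274 tested, against 9060 of 15807 with all 6 libraries. WT 2 and dKO 3 were picked from these same data for standing apart, so calls added without them are no independent support. The median log2 fold change was -0.30 over the 8 genes and -0.01 over all tested genes.

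The promoters are shown first, because p53 acts on its targets through paired copies of a 10-base half-site near the gene start or in an early intron. RefSeq promoter windows on GRCm38.p6, each from 250 bases before to 50 bases after an annotated start, were matched to 8 of the 9 genes and gave 11 windows. Zmat3 had no window in the table. Capitals mark the best match to a p53 response element, defined as a pair of half-sites with a spacer of up to 13 bases and at most 3 mismatches in all, with the C and G of each CNNG core kept. Positions are counted from the annotated start, with 1 as its first base and -1 as the base before it. The 4 windows shown are those of Ccng1, which held the closest match, of Bax, the gene that rose, and of Sesn1 and Phlda3, the genes that fell most. In Phlda3, where no such match was found, capitals instead mark GGAATG, the core letters bound by TEAD factors, the DNA-binding partners of YAP and TAZ.
Ccng1 (chr11:40755237-40755536, minus strand): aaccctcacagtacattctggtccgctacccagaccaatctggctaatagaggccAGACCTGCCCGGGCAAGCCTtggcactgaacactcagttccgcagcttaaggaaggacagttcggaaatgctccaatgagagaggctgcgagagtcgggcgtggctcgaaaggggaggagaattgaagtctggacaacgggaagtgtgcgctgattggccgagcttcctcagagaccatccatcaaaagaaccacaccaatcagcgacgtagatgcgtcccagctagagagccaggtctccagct
Bax (chr7:45466849-45467148, minus strand): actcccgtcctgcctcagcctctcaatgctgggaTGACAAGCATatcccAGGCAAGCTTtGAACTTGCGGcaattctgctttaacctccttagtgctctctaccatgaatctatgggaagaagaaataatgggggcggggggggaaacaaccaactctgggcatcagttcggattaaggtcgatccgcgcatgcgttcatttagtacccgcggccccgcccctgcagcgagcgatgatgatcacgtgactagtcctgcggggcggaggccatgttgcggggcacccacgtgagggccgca
Sesn1, start inside the gene (chr10:41887189-41887488, plus strand): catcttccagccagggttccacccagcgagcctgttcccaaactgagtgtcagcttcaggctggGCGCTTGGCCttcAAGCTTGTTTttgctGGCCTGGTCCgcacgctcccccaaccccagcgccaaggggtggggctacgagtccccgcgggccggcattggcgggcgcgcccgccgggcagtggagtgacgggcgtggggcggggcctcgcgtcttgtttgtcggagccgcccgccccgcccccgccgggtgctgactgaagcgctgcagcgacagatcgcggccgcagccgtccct
Phlda3 (chr1:135765835-135766134, plus strand): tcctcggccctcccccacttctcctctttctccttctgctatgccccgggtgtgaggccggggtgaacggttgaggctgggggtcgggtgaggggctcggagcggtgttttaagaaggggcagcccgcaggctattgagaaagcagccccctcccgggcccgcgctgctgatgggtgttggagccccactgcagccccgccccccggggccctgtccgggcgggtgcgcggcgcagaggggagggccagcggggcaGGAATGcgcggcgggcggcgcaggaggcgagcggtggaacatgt

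The Ccng1 match, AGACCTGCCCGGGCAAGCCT, lay from -195 to -176 with no spacer and 1 mismatch. The Bax window held overlapping matches with 2 mismatches each, TGACAAGCATATCCCAGGCAAGCTT from -216 to -192 and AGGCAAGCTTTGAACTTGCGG from -201 to -181. In Sesn1, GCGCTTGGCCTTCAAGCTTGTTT and AAGCTTGTTTTTGCTGGCCTGGTCC shared a half-site and had 2 mismatches each. The overlapping matches of Bax and of Sesn1 share capitals above, with spacers left in lower case. The Mdm2 window held a single half-site without mismatch, GAACTTGCCT, from -186 to -177, and no pair. A response element was found in 6 of the 11 windows, against 15.6% of all 32841 mouse windows of this length. A half-site without mismatch was found in 5 of the 11 windows, against 8.36% of all windows. GGAATG or its reverse complement, searched on both strands, was found in 2 of the 11 windows, those of Phlda3 and Eda2r, and in 14.7% of all windows. These are matches of letters in short windows and were not tested for binding. The genes were selected as p53 targets, so their matches are no independent evidence, and the windows of a gene with several starts can share bases. The other Sesn1 window, at its upstream start, held no response-element match. The genes with such a match were Trp53, Ccng1, Bax, Bbc3 in 2 of its windows, and Sesn1. Of these 5 genes, Bax was called higher, Trp53, Bbc3 and Sesn1 were called lower, and Ccng1 was not called.

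Trp53 (ENSMUSG00000059552, GRCm38 chromosome 11, 69580359 to 69591873) was lower in the dKO libraries. It stood at 41.4, 41.0 and 51.8 CPM in dKO 1, dKO 2 and dKO 3, against 61.3, 63.4 and 68.3 CPM in WT 1, WT 2 and WT 3, CPM being counts scaled to a common library total with TMM factors. Every dKO library lay below every WT library, and dKO 3 lay nearest to WT. The log2 fold change, dKO over WT, was -0.52 ± 0.11 (SE, edgeR adjusted p = 0.00288), a fold of 0.695. The groups' ranges did not overlap for Trp53, and the same held for 65.6% of all tested genes. The call was lost when the test was made against a 1.5-fold change (edgeR adjusted p = 0.787). No annotated gene overlaps Trp53 in GENCODE M21, and the pseudogene Trp53-ps was at 0 counts in all libraries.

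Mdm2 (ENSMUSG00000020184, chromosome 10, 117688875 to 117710758), the gene of the ligase that degrades p53, was not called. Its levels were 76.8, 85.3 and 61.7 CPM in dKO 1, dKO 2 and dKO 3, against 81.2, 78.2 and 76.5 CPM in WT 1, WT 2 and WT 3. The dKO values lay on both sides of the WT values. Mdm2 had a log2 fold change of -0.08, with a 95% interval of -0.34 to 0.18 (edgeR adjusted p = 0.599), and it was 0.04 without dKO 3. Mdm4, which encodes the MDM2 relative that binds p53 and blocks its activity, fell to 83.9 ± 5.996 CPM in dKO, against 232 ± 8.11 CPM in WT (SD, n = 3 each). Mdm4 differed by -1.47 ± 0.08 in log2 (edgeR adjusted p = 7.93e-07). Per kilobase of annotated exon, Mdm2 stood at 14.7 ± 2.35 CPM in dKO and 15.5 ± 0.466 CPM in WT. Mdm4 stood at 5.67 ± 0.405 CPM per kilobase in dKO and 15.7 ± 0.548 CPM per kilobase in WT. Mdm2 therefore made up 69.96 to 73.7% of the summed length-scaled level of the pair in dKO libraries and 49.1 to 49.9% in WT libraries.

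Ccng1 (ENSMUSG00000020326, chromosome 11, 40748552 to 40755311) encodes cyclin G1, which recruits the phosphatase PP2A to MDM2. It stood at 46.9, 52.3 and 37.5 CPM in dKO 1, dKO 2 and dKO 3, against 39.8, 31.3 and 42.1 CPM in WT 1, WT 2 and WT 3. The groups overlapped, with dKO 3 below 2 of the WT libraries. The log2 fold change of 0.27 had a 95% interval of -0.07 to 0.61 and was not called (edgeR adjusted p = 0.156). Without dKO 3 it was 0.39 and was called (edgeR adjusted p = 0.0422). It was 0.15 without WT 2 and 0.16 without dKO 2, not called in either (edgeR adjusted p = 0.394 and 0.437). Ccng1 stayed uncalled under 15 of 17 alternative settings. Its relative Ccng2, the gene of cyclin G2, fell to 51.2 ± 3.11 CPM in dKO, against 94.1 ± 0.450 CPM in WT (log2 fold change -0.88 ± 0.08, edgeR adjusted p = 1.48e-05).

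**Figure D1:**
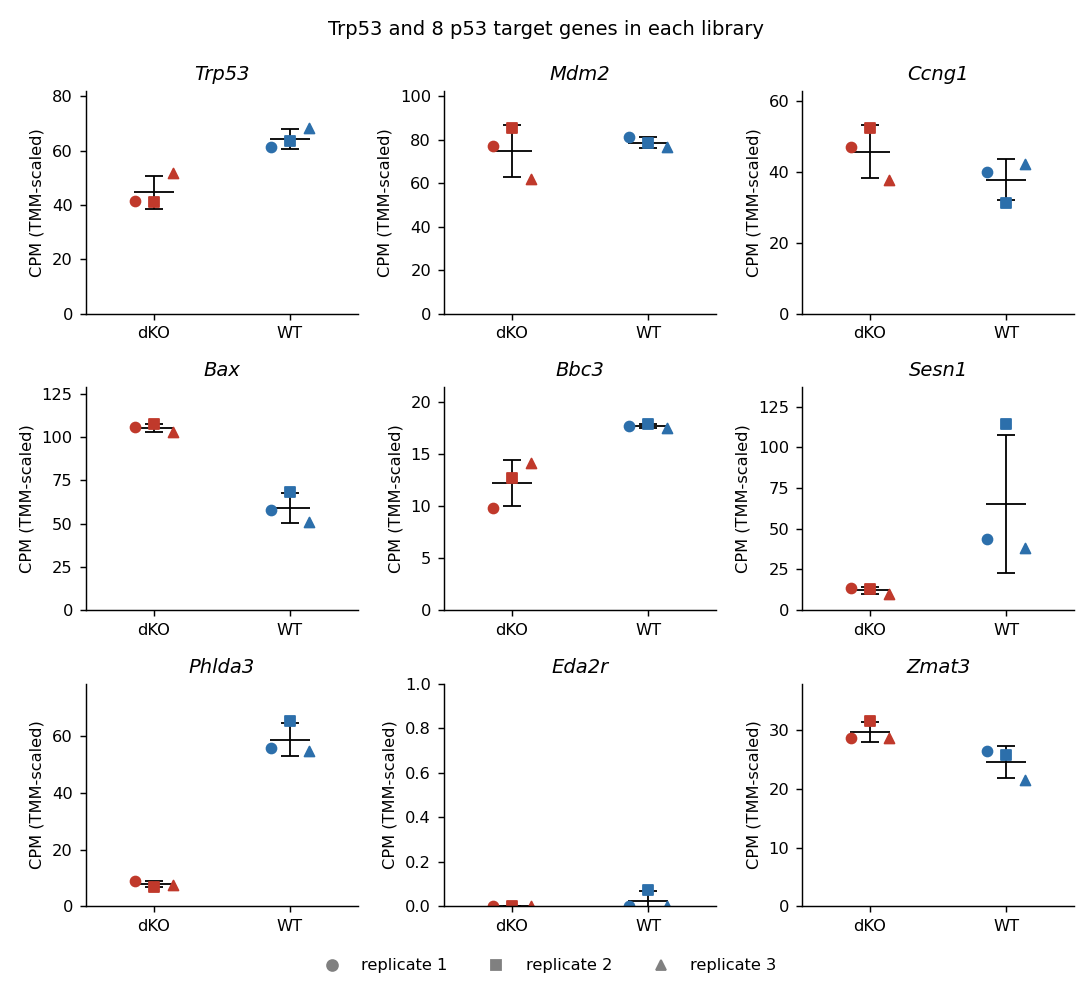
Levels of Trp53 and 8 p53 target genes in each library. The y axes give TMM-scaled CPM from 0, each panel with its own scale, dKO is on the left and WT on the right of each panel, symbols mark replicates, and black bars show the mean and SD of 3 libraries. The groups do not overlap for Trp53, Bax, Bbc3, Sesn1, Phlda3 and Zmat3, they overlap for Mdm2 and Ccng1, and Eda2r lies at or near 0.

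The cell death genes of the set moved in opposite directions. Bax (ENSMUSG00000003873, chromosome 7, 45461697 to 45466898) encodes a protein that permeabilizes the outer mitochondrial membrane. It rose to 106, 107 and 103 CPM in dKO 1, dKO 2 and dKO 3, against 57.6, 68.3 and 51.0 CPM in WT 1, WT 2 and WT 3. The dKO libraries lay close together and all above WT. In log2 terms Bax was higher by 0.84 ± 0.11 (SE, edgeR adjusted p = 0.000169). Bax shares 192 exonic bases with Gm45808 on the same strand, and Gm45808 was at 0 counts in every library. Bbc3 (ENSMUSG00000002083, chromosome 7, 16308393 to 16318205) encodes PUMA, a BH3-only protein that triggers BAX and its relatives. It fell to 9.79, 12.7 and 14.2 CPM in dKO 1, dKO 2 and dKO 3, against 17.7, 17.9 and 17.5 CPM in WT 1, WT 2 and WT 3. The WT libraries were nearly equal, and the dKO libraries were spread below them. Bbc3 had a log2 fold change of -0.54 ± 0.15 (adjusted p = 0.0152 by edgeR), and the call was lost against a 1.5-fold change (edgeR adjusted p = 0.682).

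The nearest relatives of these cell death genes showed the same lack of a common direction. Bak1, which encodes the other main pore-forming effector, rose to 81.7 ± 11.2 CPM in dKO, against 41.1 ± 5.01 CPM in WT (edgeR adjusted p = 0.000157). Bak1 shares some of its 2407 exonic bases with Ggnbp1 on the opposite strand, and reads in the shared bases may belong to either gene. Bok, a further member of the effector group, fell to 10.3 ± 3.42 CPM in dKO, against 61.3 ± 10.2 CPM in WT (log2 fold change -2.58 ± 0.24, edgeR adjusted p = 3.39e-05). Bcl2l11, the gene of the BH3-only protein BIM, fell to 19.5 ± 1.82 CPM in dKO, against 165 ± 11.7 CPM in WT (log2 fold change -3.09 ± 0.10, edgeR adjusted p = 5.85e-08). Pmaip1, the gene of the p53-inducible BH3-only protein NOXA, was too low to be tested, with 0, 15 and 3 counts in dKO 1, dKO 2 and dKO 3 and 0 in every WT library. Summed per kilobase of exon, Bax, Bak1 and Bok together stood at 106 ± 5.08 CPM in dKO and 87.8 ± 2.45 CPM in WT. Bax made up 58.1 to 65.7% of that sum in dKO libraries and 36.7 to 50.9% in WT libraries.

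Sesn1 and Phlda3, whose products restrain growth signalling, gave the largest differences of the set. Phlda3 (ENSMUSG00000041801, chromosome 1, 135766119 to 135769136) encodes a small PH-domain protein that competes with AKT for membrane lipids. It fell to 8.87, 6.95 and 7.59 CPM in dKO 1, dKO 2 and dKO 3, against 55.8, 65.5 and 54.9 CPM in WT 1, WT 2 and WT 3. The lowest WT library was far above the highest dKO library. Phlda3 was 7.53-fold lower in dKO, with a log2 fold change of -2.91 ± 0.13 (adjusted p = 3.36e-07 by edgeR) that stayed between -3.01 and -2.81 over 17 alternative settings. Ranked from the largest decrease, Phlda3 was number 700 of 15807 tested genes.

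Phlda1 and Phlda2, the relatives of Phlda3, were lower in dKO as well. Phlda1 fell to 17.9 ± 2.26 CPM in dKO, against 144 ± 7.99 CPM in WT (log2 fold change -3.01 ± 0.11, edgeR adjusted p = 1.09e-07). It shares exonic bases with Gm28592 on the other strand. Phlda2 fell to 15.5 ± 0.306 CPM in dKO, against 23.4 ± 4.85 CPM in WT (log2 fold change -0.59 ± 0.15, edgeR adjusted p = 0.00946). The summed level of the trio was 27.0 ± 0.831 CPM per kilobase in dKO and 124 ± 5.64 CPM per kilobase in WT. Phlda2 held 48.9 to 53.8% of this sum in dKO libraries and 15.0 to 19.9% in WT libraries.

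Sesn1 (ENSMUSG00000038332, chromosome 10, 41809935 to 41908424) encodes sestrin 1, which restrains mTORC1 when leucine is scarce. It fell to 13.6, 13.2 and 9.68 CPM in dKO 1, dKO 2 and dKO 3, against 43.5, 114 and 37.96 CPM in WT 1, WT 2 and WT 3. All dKO libraries lay below all WT libraries, while WT 2 stood at 2.80 times the mean of the other WT libraries. Sesn1 had a log2 difference of -2.42 ± 0.48 (edgeR adjusted p = 0.00612). Without WT 2 it was -1.75 (edgeR adjusted p = 6.6e-05), so the size of the fall, but not the call, rested on that library. The annotated transcript 9930024M15Rik lies within Sesn1 on the same strand without sharing exonic bases.

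The sestrin genes did not move together. Sesn2, another p53 target and also a gene of nutrient stress, rose to 18.6, 16.9 and 24.9 CPM in dKO 1, dKO 2 and dKO 3, against 6.69, 12.6 and 6.25 CPM in WT 1, WT 2 and WT 3. As for Sesn1, WT 2 was the highest WT library. The log2 fold change of Sesn2 was 1.25 ± 0.28 (edgeR adjusted p = 0.00474). Sesn3, which is known as a FOXO target, fell to 21.01 ± 1.27 CPM in dKO, against 235 ± 10.8 CPM in WT (log2 fold change -3.48 ± 0.08, edgeR adjusted p = 1.97e-08). The summed sestrin level per kilobase was 10.2 ± 0.653 CPM in dKO and 34.2 ± 12.4 CPM in WT. Sesn2 made up 50.8 to 65.8% of the sum in dKO libraries and 6.87 to 7.46% in WT libraries.

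Zmat3 (ENSMUSG00000027663, chromosome 3, 32334792 to 32366014), which encodes an RNA-binding zinc finger protein that acts on splicing and mRNA stability, was not called. Its levels were 28.7, 31.6 and 28.7 CPM in dKO 1, dKO 2 and dKO 3, against 26.4, 25.9 and 21.6 CPM in WT 1, WT 2 and WT 3. The dKO libraries all lay above the WT libraries, but by little. The log2 fold change was 0.27, with a 95% interval of 0.01 to 0.53 before adjustment (edgeR adjusted p = 0.0711). Without WT 2 and dKO 3 it was 0.33 and was called (edgeR adjusted p = 0.0387). Zmat3 stayed uncalled under 16 of 17 alternative settings, with a lowest log2 fold change of 0.18. Of the other ZMAT genes, Zmat1 fell to 3.10 ± 0.423 CPM in dKO, against 5.24 ± 0.749 CPM in WT (edgeR adjusted p = 0.0197). That call was lost without dKO 1, without dKO 2 or without WT 2 (edgeR adjusted p = 0.0639, 0.0624 and 0.0543). Zmat2 and Zmat5 were not called, with log2 fold changes of -0.13 and -0.03, and Zmat4 was at 0 counts in every library.

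Eda2r (ENSMUSG00000034457, chromosome X, 97333840 to 97377216) encodes a receptor of the TNF receptor family that binds ectodysplasin A2 and is induced by p53. It had 0 counts in every dKO library and 0, 3 and 0 counts in WT 1, WT 2 and WT 3. A count of 0 allows up to 12 counts per library here, or 0.243 to 0.314 CPM, because a read pair may add 4 counts, and Eda2r was not tested. A difference in Eda2r below that floor was therefore not detectable at this depth. Eda, the gene of its ligand, had 0, 3 and 4 counts in dKO 1, dKO 2 and dKO 3, against 53, 51 and 103 counts in WT 1, WT 2 and WT 3. Eda was called lower (edgeR adjusted p = 0.000885), at levels too low in dKO to size the fold. Edar, the gene of the receptor for the other ectodysplasin A form, had 0, 18 and 26 counts in dKO 1, dKO 2 and dKO 3 and 0 in every WT library, and it was not tested.

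**Figure D2:**
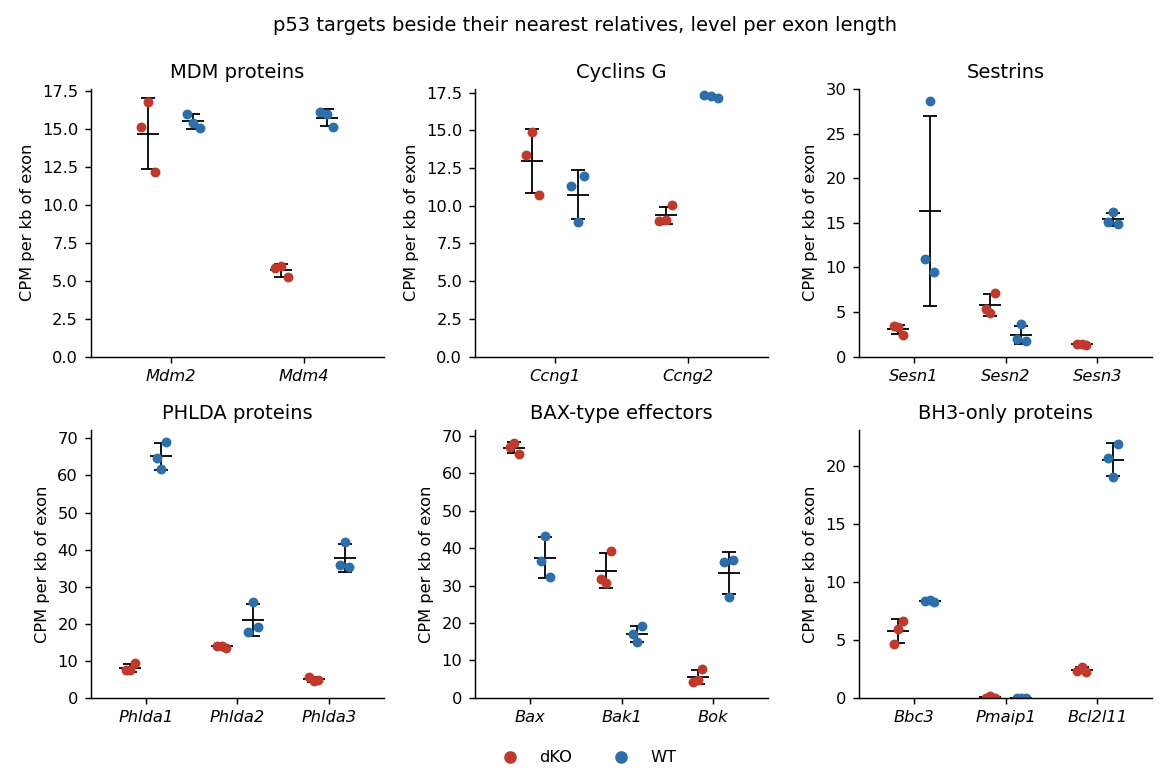
Members of each gene family in CPM per kilobase of annotated exon (y axis, from 0, each panel with its own scale), with dKO to the left of WT for every gene. Points are libraries and black bars the mean and SD of 3 libraries. Mdm4, Ccng2, Sesn3, Phlda1 and Bcl2l11 lie lower in dKO than in WT with no overlap, while Sesn2, Bax and Bak1 lie higher.

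The order of the genes by length-scaled level differed between the groups. In dKO libraries Bax led at 66.8 ± 1.502 CPM per kilobase of exon, followed by Mdm2 at 14.7 ± 2.35, Ccng1 at 12.98 ± 2.13 and Trp53 at 11.1 ± 1.51 CPM per kilobase. Bbc3 at 5.75 ± 1.05, Phlda3 at 5.01 ± 0.626, Sesn1 at 3.05 ± 0.537 and Zmat3 at 2.60 ± 0.149 CPM per kilobase came below. In WT libraries Phlda3 at 37.7 ± 3.76 and Bax at 37.4 ± 5.53 CPM per kilobase led and did not differ beyond their spread. Sesn1 at 16.4 ± 10.7, Trp53 at 15.9 ± 0.891 and Mdm2 at 15.5 ± 0.466 CPM per kilobase came next, again within their spread, before Ccng1 at 10.7 ± 1.63, which Sesn1 exceeded in WT 2 only. Sesn1 stood at 10.9, 28.7 and 9.53 CPM per kilobase in WT 1, WT 2 and WT 3, and lay below Ccng1 in WT 1 and WT 3. The lowest levels in WT were those of Bbc3 at 8.34 ± 0.0750 and Zmat3 at 2.15 ± 0.234 CPM per kilobase. In dKO, Mdm2, Ccng1 and Trp53 lay within their spread of their neighbours in the order, as did Bbc3 and Phlda3, and Sesn1 and Zmat3. These levels use the annotated exon length, which overstates the length of the expressed transcripts where isoforms differ.

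Within a group, the genes did not vary together. The level of dKO 3 was 0.761 times the mean of the other dKO libraries for Mdm2, 0.757 times for Ccng1 and 0.724 times for Sesn1. For Trp53 and Bbc3 it was 1.26 times that mean. In WT 2, Sesn1 was 2.80 times and Bax 1.26 times the mean of the other WT libraries, while Ccng1 was 0.763 times that mean. Among the 8 tested genes, the largest coefficient of variation was that of Sesn1 in WT, at 65.2%, and the smallest was that of Bbc3 in WT, at 0.899%.

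Cdkn1a, which encodes the cell cycle inhibitor p21 and is the best known target of p53, fell in the dKO libraries. It stood at 6.93, 9.61 and 10.2 CPM in dKO 1, dKO 2 and dKO 3, against 29.6, 15.7 and 33.4 CPM in WT 1, WT 2 and WT 3. All dKO libraries lay below WT, and WT 2 was the lowest of the WT libraries. Its log2 fold change was -1.56 ± 0.28 (edgeR adjusted p = 0.00148). Cdkn1a shares 273 of its 3553 exonic bases with AC167363.2 on the other strand. How strands were treated in counting is not given, so reads in the shared bases may belong to either gene.

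Of 48 further p53 target genes on a list, Cdkn1a and Sesn2 among them, 44 were tested, of which 19 were called higher, 18 were called lower and 7 were not called in dKO. This is 43.2% higher and 40.9% lower, against 28.6% and 28.7% of all tested genes. Their median log2 fold change was -0.01, as it was over all tested genes. Of the 4 that were not tested, Pmaip1, Gdf15 and Zfp365 had few counts and Cd80 had none. Among 9 tested genes of cell death, 6 were called higher and 2 lower, and among 10 of metabolism and nutrient sensing, 5 were called higher and 3 lower. Among 8 of growth arrest, 2 were called higher and 3 lower, among 6 of DNA repair and nucleotide supply, 3 and 2, and among 11 with other roles, 3 and 8. The roles were assigned after the values were seen, so the counts by role are given without a test and are no independent evidence.

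The 4 rises with the smallest adjusted p on this list were in Perp, Plk2, Tigar and Gls2. Perp, which encodes a desmosomal membrane protein linked to p53-dependent death, rose to 613 ± 20.04 CPM in dKO, against 261 ± 20.3 CPM in WT (edgeR adjusted p = 2.1e-06). Plk2, a polo-like kinase gene, rose to 184 ± 37.8 CPM in dKO, against 21.6 ± 3.34 CPM in WT (log2 fold change 3.08 ± 0.18, edgeR adjusted p = 2.1e-06). Tigar, whose product lowers fructose-2,6-bisphosphate and so glycolytic flux, rose to 27.2 ± 2.61 CPM in dKO, against 7.35 ± 0.553 CPM in WT (edgeR adjusted p = 4.22e-06). Gls2, a mitochondrial glutaminase gene, rose to 21.4 ± 2.03 CPM in dKO, against 3.30 ± 1.01 CPM in WT (edgeR adjusted p = 1.4e-05). Tigar shares exonic bases with Platr31 and Gls2 with Spryd4, each on the other strand.

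The 4 falls with the smallest adjusted p were in Ddit4, Dyrk3, Klhl26 and Trp53inp1. Ddit4, whose product inhibits mTORC1 under stress, fell to 81.97 ± 8.83 CPM in dKO, against 360.5 ± 18.7 CPM in WT (edgeR adjusted p = 2.85e-07). Dyrk3, a kinase gene of stress granule dissolution, fell to 19.0 ± 2.44 CPM in dKO, against 65.7 ± 4.58 CPM in WT (edgeR adjusted p = 2.79e-06). Klhl26, which encodes a kelch protein, fell to 26.1 ± 4.11 CPM in dKO, against 75.9 ± 6.16 CPM in WT (edgeR adjusted p = 1.09e-05). Trp53inp1, which encodes a nuclear cofactor of p53 that also acts in autophagy, fell to 15.0 ± 0.824 CPM in dKO, against 33.8 ± 2.00 CPM in WT (edgeR adjusted p = 1.94e-05). The naming rule took rises and falls alike, so both signs among these named genes follow from the rule.

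**Figure D3:**
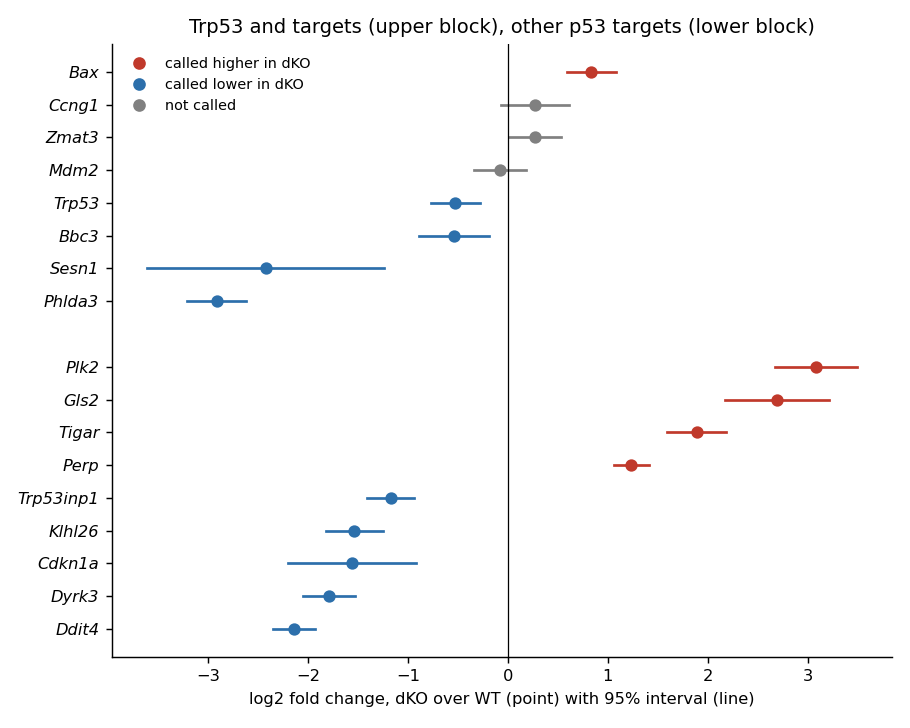
Log2 fold change, dKO over WT (x axis), with its 95% interval before adjustment as a line. Trp53 and the 7 tested targets described first are in the upper block and Cdkn1a with the named further targets in the lower block, and colours give the edgeR call. Of the upper block, Bax at 0.84 is the one gene called higher, and Phlda3 at -2.91 is the lowest.

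Of 27 tested regulators of p53, 10 (37.0%) were called higher and 9 (33.3%) lower, against 28.6% and 28.7% of all tested genes, with a median log2 fold change of 0.11. Kmt5a, whose product methylates histone H4 and also p53, rose to 264 ± 9.98 CPM in dKO, against 84.2 ± 3.85 CPM in WT (edgeR adjusted p = 2.58e-07). Prkdc, the gene of the DNA-dependent protein kinase catalytic subunit, rose to 43.8 ± 4.00 CPM in dKO, against 29.3 ± 1.77 CPM in WT (edgeR adjusted p = 0.00118). Twist1, which encodes a transcription factor known to restrain p53, had 0 counts in every dKO library and stood at 13.9 ± 2.54 CPM in WT, at least 46.9-fold lower in dKO against a floor of 12 counts per library (edgeR adjusted p = 2.32e-06). Cdkn2a, which encodes the MDM2 inhibitor ARF as well as p16, had 0 counts in all 6 libraries. Each of these zeros allows up to 0.314 CPM.

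The other p53 family genes were at low levels. Trp63, the gene of p63, stood at 3.93, 1.33 and 1.49 CPM in dKO 1, dKO 2 and dKO 3, against 0.0811, 1.51 and 0.410 CPM in WT 1, WT 2 and WT 3. The groups overlapped, since WT 2 lay above 2 dKO libraries. The log2 fold change of 1.76 was not called (edgeR adjusted p = 0.119), it was 1.09 without dKO 1, and without WT 2 it was 3.19 and was called (edgeR adjusted p = 0.0121). Trp73, the gene of p73, had 0 counts in all libraries. Over the 18 relatives of the 9 genes, 14 were tested, of which 2 (14.3%) were called higher and 9 (64.3%) lower, against 28.6% and 28.7% of all tested genes. Their median log2 fold change was -0.82.

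**Figure D4:**
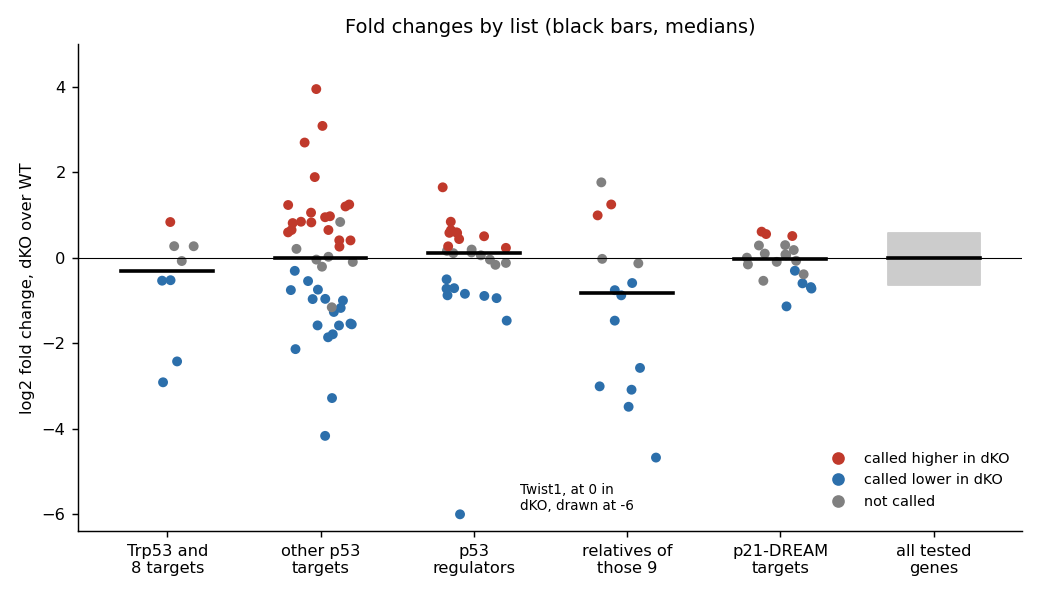
Log2 fold change, dKO over WT (y axis), of every tested gene of 5 lists, coloured by the edgeR call, with black bars at the medians. The grey box at the right spans the middle quartiles of all tested genes, and Twist1, at 0 in dKO, is drawn at the lower edge. The medians are -0.30 for Trp53 and its 8 targets, -0.01 for the further targets, 0.11 for the regulators, -0.82 for the relatives and -0.03 for the p21-DREAM genes, which are cell cycle genes repressed through p21.

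The libraries were checked against their labels. Lats1 fell to 50.9 ± 2.55 CPM in dKO, against 153 ± 6.36 CPM in WT, while Lats2 rose to 77.9 ± 12.5 CPM in dKO, against 27.2 ± 4.01 CPM in WT (edgeR adjusted p = 4.66e-07 and 3.46e-05). Counts per gene do not read small edits and Lats2 shares 2955 exonic bases with Gm49361 on the same strand, so the Lats2 level does not check its knockout, and every direction given here is between libraries as labelled. All 6 epithelial markers listed were detected in every library, at a summed level of 3800 to 4548 CPM in dKO and 4964 to 5487 CPM in WT. Of these 6, 4 were called lower and 1, Cdh1, higher in dKO, with Epcam at 288 ± 15.7 CPM in dKO and 795 ± 20.6 CPM in WT. Summed leukocyte markers stood at 77.0 to 209 CPM in dKO and 3.38 to 16.5 CPM in WT. Csf1r was the largest part of the dKO sums, at 188, 190 and 62.7 CPM in dKO 1, dKO 2 and dKO 3. The macrophage marker Cd68 stood at 15.6 ± 1.80 CPM in dKO and 2.15 ± 0.207 CPM in WT (edgeR adjusted p = 2.35e-06). Itgam had 13, 13 and 20 counts and Adgre1 81, 103 and 0 counts in dKO 1, dKO 2 and dKO 3, and both had 0 in WT. Cd3e and Ly6g were at 0 in all libraries, and the pan-leukocyte marker Ptprc had 4, 17 and 0 counts in dKO 1, dKO 2 and dKO 3 and 0 in WT. Of these 10 leukocyte markers, 3 were tested, Csf1r, Cd68 and Itgam, and all 3 were called higher. Itgam lay near the floor of 12 counts per library, and against it was at least 1.41-fold higher in dKO. Summed fibroblast markers stood at 5.00 to 7.57 CPM in dKO and 41.8 to 66.1 CPM in WT, with Lum at 0 in all libraries. In WT the sums were largely Pdgfra at 38.2, Col1a1 at 12.1 and Pi16 at 6.20 CPM on average, with Dcn next at 0.138 CPM. Of the 10 fibroblast markers 4 were tested, of which 1, Col1a2, was called higher and 3 lower. Summed endothelial markers stood at 3.23 to 6.14 CPM in dKO and 21.7 to 26.3 CPM in WT, with Kdr and Cldn5 at 0. Flt1 was the largest part, at 4.25 ± 0.947 CPM in dKO and 22.4 ± 2.07 CPM in WT, with Pecam1 next in WT at 0.777 CPM. Of the 8 endothelial markers 2 were tested, of which 1, Flt1, was called lower. Beside the marker calls of all 4 cell types, 28.6% of all tested genes were called higher and 28.7% lower. The part of these markers in the results above was not tested. In bulk RNA, fewer cells of a type and less RNA per cell cannot be told apart. Nor do these counts show which cells expressed a marker, the 4T1 cells or others.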

How the data were processed

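RNA-seq libraries of 3 dKO and 3 WT spheroid samples were compared. The authors deposited unnormalized, whole-number estimated counts for each gene. The tools listed in the submitters' processing notes are StringTie 2.2.1 and HISAT2 2.2.1, with the builds GRCm38 and mm10. How genes were counted, on which annotation and with which strand setting is not given in the sources used here. Values piled up at 4 counts (678 to 775 genes per library, against 273 to 367 at 5), so a read pair may add 4 counts, and 12 counts, or 3 read pairs, were taken as the floor for a gene at 0, covering counting error only. The deposited counts by sample equalled the columns of the series table.

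Symbols, positions and exon lengths came from GENCODE M21, with 676 identifiers unmatched. The test was that of edgeR 4.0.16, run in R 4.3.3 on the counts of all 6 libraries (TMM, filterByExpr, robust quasi-likelihood F-test, genotype as the only term, Benjamini-Hochberg adjustment over 15807 genes), after the test had been tried on simulated counts. The SE is the absolute log2 fold change over the square root of F, and the 95% intervals use it. Levels are TMM-scaled CPM, given as mean ± SD of 3 libraries.

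The gene set, the lists and the naming rule were chosen with earlier results of these data known, and the roles after the values were seen. The rule named Trp53 and its 8 targets, their relatives, Cdkn1a, Cdkn2a and Lats2 whatever their result. It added the 4 rises and 4 falls with the smallest adjusted p among further targets, 2 each among regulators, 2 p21-DREAM genes and the 3 genes with a pattern nearest to Trp53. Other genes named (Lats1, markers, untested genes) were added to account for the lists. Alternatives were other scalings, filters, thresholds, DESeq2 1.42.0, counts divided by 4, a replicate block and libraries left out. RefSeq promoter windows were searched on both strands.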

Additional observations from a re-analysis of the deposited data

How the results depend on the processing

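The 11 counts of called genes were recomputed under 17 alternatives, and 174 of the 187 values were within 1.5 times of the reported count. Against a 1.5-fold change, which asks for more by construction, 4556 of all genes, 10 further targets higher, 2 of Trp53 and its targets lower, 1 regulator higher, and 0 p21-DREAM genes higher and 1 lower were called by edgeR. Those 0 compare with 0 at an unadjusted p under 0.05 against that fold and 3 by DESeq2 against no change. At an adjusted p under 0.01, 12 further targets, 6 regulators and 1 p21-DREAM gene were called higher. Over all 15807 tested genes, 7067 were called at that threshold in either direction, against 9060 at 0.05. With each library left out in turn, Trp53 and its targets called higher numbered 1 to 2 (Ccng1 was added without dKO 3), p21-DREAM genes called higher 1 to 3 (1 without dKO 2), and all called genes 8041 to 9120. Without WT 2 and dKO 3, 10139 of all 16274 tested genes were called. Trp53 and its targets called higher then numbered 3, with Ccng1 and Zmat3 added, and p21-DREAM genes called lower 11. WT 2 and dKO 3 were left out because they stood apart in these same data, and the cause of the added calls was not tested. The calls of Phlda3, Sesn1 and Bax were kept under all 17 alternatives, that of Trp53 under 16 and that of Bbc3 under 15, the losses being at the stricter thresholds. Mdm2 changed sign without dKO 3 (0.044) and without WT 2 and dKO 3 (0.04), within -0.18 to 0.04 with 1 library left out. Zmat5 changed sign with the replicate block (0.0026) and without WT 2 and dKO 3 (0.087), and with 1 library left out ran from -0.21 to 0.12, positive without dKO 1 (0.0093), WT 1 (0.029) or WT 2 (0.12). None of these values of Mdm2 or Zmat5 was called. Same-numbered libraries had correlations of -0.06, 0.05 and 0.08 of their deviations from the group means, so the numbers were not taken to pair them, and dKO 1 did not correlate best with WT 1. With the replicate block, 8658 genes were called, and 1 of Trp53 and its targets was called higher and 4 lower, as without it. Fold changes of genes near the floor, such as Eda and Twist1, are limited by depth.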

Other observations

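Genes that p53 represses through p21 and the DREAM complex, which are cell cycle genes held down when p21 is high, were counted gene by gene. Of 20 tested, 3 (15%) were called higher and 5 (25%) lower in dKO, against 28.6% and 28.7% of all tested genes, with a median log2 fold change of -0.03. These counts were not stable: 1 was called higher without dKO 2 and 0 against a 1.5-fold change, and 11 were called lower without WT 2 and dKO 3. Over all tested genes, 8177 of 16513, 4556 of 15807 and 10139 of 16274 were called in these settings, in that order. E2f2, a cell cycle transcription factor gene, fell to 8.89 ± 2.63 CPM in dKO, against 19.5 ± 4.28 CPM in WT, and Top2a, a topoisomerase gene, to 324 ± 22.1 CPM in dKO, against 533 ± 128 CPM in WT (edgeR adjusted p = 0.00319 and 0.00609). The median deviation of the list from its WT mean was -0.39 in WT 2, against 0.18 and 0.21 in WT 1 and WT 3. Cdkn1a was also lowest in WT 2 among the WT libraries, so both were low there together, the reverse of the relation described above. A link between Cdkn1a and the list was not tested.

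The genes whose deviations from the WT mean over the 6 libraries lay nearest to those of Trp53, by Euclidean distance of log2 CPM, were Wasf2, Pold2 and Prmt1, at distances of 0.113, 0.118 and 0.124. Wasf2 encodes an actin regulator of the WAVE complex and stood at 105 ± 14.6 CPM in dKO and 151 ± 10.1 CPM in WT. Pold2, a DNA polymerase delta subunit gene, stood at 37.0 ± 5.31 CPM in dKO and 53.3 ± 1.74 CPM in WT, and Prmt1, an arginine methyltransferase gene, at 143 ± 16.7 CPM in dKO and 201 ± 6.15 CPM in WT. All 3 had a log2 fold change between -0.53 and -0.48, near that of Trp53, which follows from how they were chosen.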
